A study of Mus musculus with 9 samples.

Results

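The 44 genes described here are the mouse mitochondrial solute carriers whose symbols begin with Slc25a and a number, taken by symbol from a table of 16509 genes. The 9 libraries came from cultured MC38 cells, which derive from a mouse colon tumour. Each group had 3 libraries: Ctrl, labelled as DMSO-treated (the study's text names PBS); Cu-Cys, cells given copper chloride with cystine; and Cadict, cells given a nanoparticle of coordinated copper and cystine that also carries glucose oxidase and a peptide that binds the EGF receptor. No dose or time for these libraries stands in the sources used here, all 3 groups share 1 cell line, and p-values rest on the spread among 3 libraries a group, which the study counts as biological replicates; the labels name no separate cultures. The comparison of Cu-Cys with Ctrl asks what copper and cystine do alone, and that of Cadict with Cu-Cys asks what the complete nanoparticle adds.

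Most SLC25 proteins sit in the inner mitochondrial membrane and exchange a metabolite of the matrix for one of the cytosol, so that ADP, phosphate, carboxylic acids, amino acids and cofactors can cross a membrane that is otherwise closed to them. They are encoded in the nucleus, made in the cytosol and inserted by a dedicated import route, the TIM22 pathway. A few sit elsewhere, such as Slc25a17 in peroxisomes and Slc25a46 in the outer mitochondrial membrane. Copper belongs to the same biology: Slc25a3, the phosphate carrier, also brings copper into the matrix for cytochrome c oxidase.

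Library totals lay between 17905769 and 18293060 expected counts, but their composition differed between groups. The TMM factors, which edgeR uses to scale libraries to a common reference, were 1.26 to 1.27 in Ctrl, 1.21 in Cu-Cys and 0.64 to 0.665 in Cadict. Levels are given below as CPM after TMM scaling, that is each count divided by the scaled size of its library. A rise is relative to that scaled size and need not be a larger share of all counts. In bulk RNA, fewer cells and less RNA per cell cannot be told apart. Scaling by library totals moved the median over all tested genes of the log2 fold change in Cadict against Ctrl from -0.125 to -1.08, so directions are given below with the scalings under which they turn. Among markers of the cell line, summed CPM of 7 epithelial genes (6 of them listed) was 5.32 to 6.83 in Ctrl, 3.97 to 4.38 in Cu-Cys and 24 to 26.1 in Cadict. Counts of Epcam reached at most 4 in any library and those of Krt18 at most 2, while Krt19 and Cdh1 made up most of the sum. Summed CPM of 5 fibroblast genes ran from 482 to 529 in Ctrl, 234 to 240 in Cu-Cys and 79.2 to 92.3 in Cadict. Col3a1 made up most of that sum in Ctrl (368 CPM) and had 26.2 CPM in Cadict. At an adjusted p no greater than 0.05 (edgeR), 4 of the 5 were lower in Cadict than in Ctrl, and Dcn was higher (log2 fold change 0.825). Summed CPM of 3 endothelial genes ran from 0.823 to 3.61 over all libraries, and that of 5 immune genes (3 of them listed) stayed at or under 0.261. The part of these markers' changes in the results below was not tested.

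Of the 44 carriers, 39 had enough counts to be tested among 11949 genes. The other 5, Slc25a2, Slc25a18, Slc25a21, Slc25a31 and Slc25a34, had at most 4 counts in any library. Ranked by TPM, which corrects for transcript length, the ADP/ATP translocase Slc25a4 came first in Ctrl at 757 ± 14.0 TPM (SD, n = 3), followed by Slc25a3 at 580 ± 9.50 TPM and the other translocase, Slc25a5, at 346 ± 6.40 TPM. The same 3 genes led in Cu-Cys. In Cadict, Slc25a3 stood first at 616 ± 12.1 TPM, Slc25a5 next at 307 ± 17.7 TPM and Slc25a4 after it at 176 ± 5.99 TPM. The spreads of these neighbours in rank did not overlap in any group. Together the 44 genes held 0.260% ± 0.000883 of all counts in Ctrl, 0.283% ± 0.00162 in Cu-Cys and 0.175% ± 0.00433 in Cadict (SD, n = 3).

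With Cadict, carriers changed in both directions, as did tested genes at large. A gene was called where it changed at least 2-fold with an adjusted p no greater than 0.001, the study's threshold. On this rule 8 carriers were higher than in Ctrl and 16 lower, beside 20.7% of all tested genes called higher and 27.1% called lower. The 8 made up 20.5% of the tested carriers, close to the share over all genes, and the 16 made up 41%. Scaling by library totals gave 3 called higher and 25 lower, beside 6.93% and 51.5% of all genes on that scale. The deposited TPM also gave 3 and 25, beside 3.26% and 54.2% of all genes, so the fall of all genes on these scales stands beside the larger number called lower. Below, a gene passes the test where its adjusted p is no greater than 0.05, whatever its fold. So counted, 12 carriers were higher and 23 lower, against 40.6% and 47.1% of all genes. The median log2 fold change of the 39 carriers was -0.785 (range -2.73 to 3.02), against -0.125 for all tested genes. Those called higher include carriers of ATP-Mg, pyrimidine nucleotides, glycine, phosphate with copper, glutathione and ADP/ATP. Those called lower include carriers of amino acids, coenzyme A, other cofactors and iron. These substrates do not divide the carriers by direction. The ATP-Mg carrier Slc25a23 was called lower, and glycine is itself an amino acid. The ADP/ATP translocase Slc25a4 passed as lower and the iron carrier Slc25a37 as higher.

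**Figure D1:**
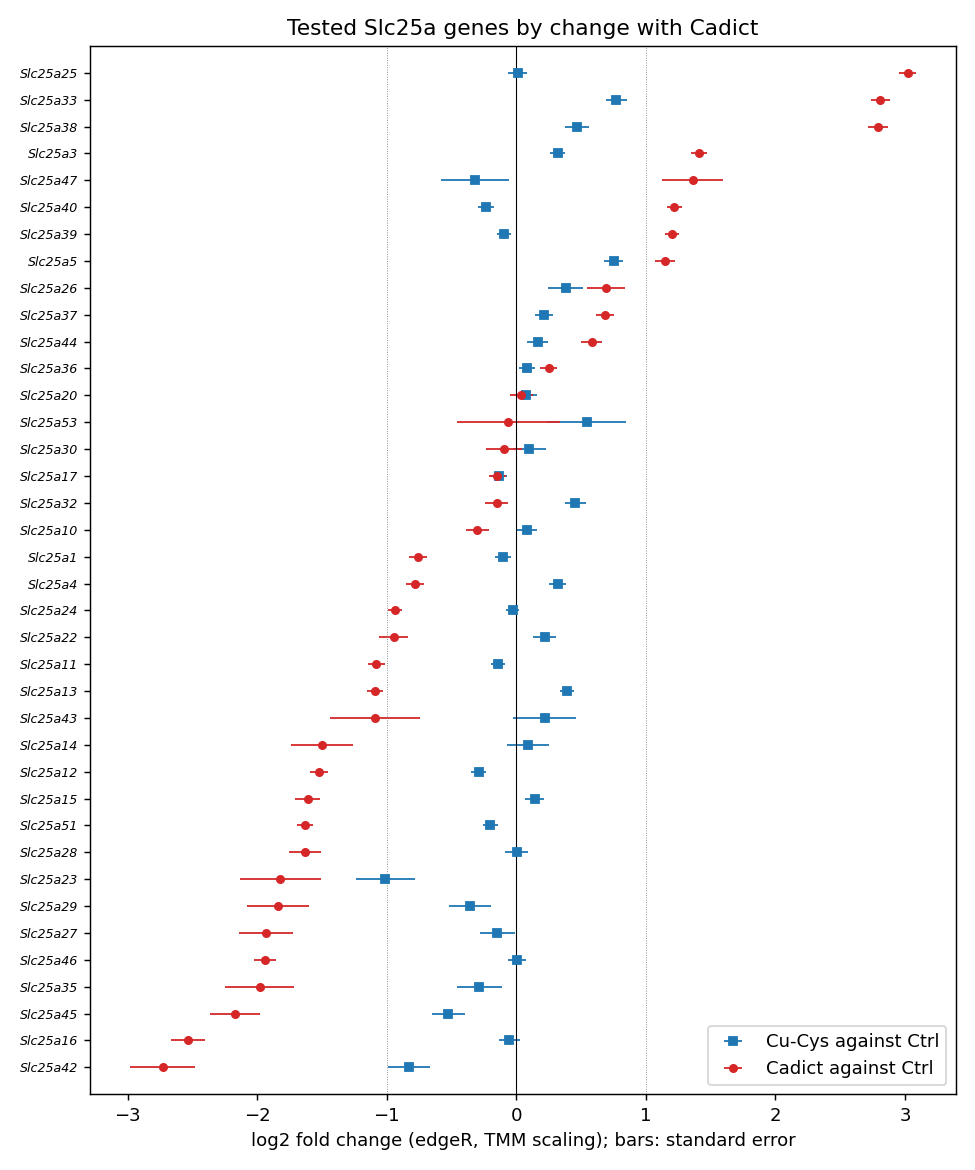
Log2 fold change against Ctrl (horizontal axis; edgeR with TMM scaling; bars are standard errors) of 38 of the 39 tested Slc25a genes, ordered by the change with Cadict. Red circles (Cadict) run from -2.73 to 3.02, and blue squares (Cu-Cys) from -1.01 to 0.77; dotted lines mark a 2-fold change.

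Slc25a25, which exchanges ATP-Mg for phosphate under calcium control, rose most. It had 14.3, 16.1 and 14.6 CPM in the Ctrl libraries, 15.6, 14.1 and 15.7 CPM in Cu-Cys and 119, 126 and 121 CPM in Cadict. Ctrl and Cu-Cys overlapped, and every Cadict library lay far above both. The rise over Ctrl was 8.12-fold (log2 fold change 3.02, SE 0.07, adjusted p = 1.9e-15), and with Cu-Cys the log2 fold change was 0.01 (SE 0.07, adjusted p = 0.91). The gene overlaps Naif1 on the opposite strand and shares 7.57% of its 50-base stretches with it, and no source used here says whether counting used strand. Its close relatives carry the same substrates: Slc25a24, the main form in these cells, fell from 244 ± 2.1 to 128 ± 7.23 CPM with Cadict (log2 fold change -0.94, adjusted p = 9.1e-11), and Slc25a23 went from 1.52 ± 0.196 to 0.427 ± 0.149 CPM (log2 fold change -1.82, adjusted p = 5.6e-05) on only 3 to 6 counts per Cadict library.

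Slc25a33, a pyrimidine nucleotide carrier that supplies mitochondrial DNA and RNA synthesis, rose in both treatments. Ctrl libraries had 10.4, 10.5 and 10.2 CPM, Cu-Cys libraries 17.7, 17.3 and 18.1 CPM and Cadict libraries 74.2, 78.2 and 66.6 CPM. The 3 groups did not overlap. The rise was 1.71-fold with Cu-Cys (adjusted p = 2.8e-06) and 7.04-fold with Cadict (log2 fold change 2.81, SE 0.07, adjusted p = 1.1e-14), and Cadict exceeded Cu-Cys by 4.12-fold (adjusted p = 2.8e-13). Of the 50-base stretches of its transcripts, 12.6% are shared with the gene model Gm13068, so part of its reads could have been assigned there or taken from there. The second pyrimidine nucleotide carrier, Slc25a36, rose only from 39.2 ± 1.04 to 46.6 ± 3.78 CPM with Cadict (log2 fold change 0.25, adjusted p = 0.0023), and that direction turned when library totals or TPM were used.

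Slc25a38, which imports glycine for the first step of heme synthesis, followed the same order. Its values were 8.13, 7.01 and 6.71 CPM in Ctrl, 9.64, 9.92 and 10.7 CPM in Cu-Cys and 50.1, 50.5 and 50.4 CPM in Cadict, again without overlap between groups. Cu-Cys exceeded Ctrl by 1.38-fold (adjusted p = 0.00069) and Cadict exceeded Ctrl by 6.90-fold (log2 fold change 2.79, SE 0.08, adjusted p = 3.1e-14). Slc25a25, Slc25a33 and Slc25a38 were the only 3 carriers that passed the test as higher in Cadict than in Ctrl under all 4 scalings tried (TMM, DESeq2 size factors, library totals, and the deposited TPM).

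Slc25a3, the phosphate and copper carrier, had 320, 323 and 320 CPM in Ctrl, 419, 389 and 395 CPM in Cu-Cys and 839, 927 and 792 CPM in Cadict. No groups overlapped. It rose 1.25-fold with Cu-Cys (adjusted p = 0.00042), a rise that passed the test under all 4 scalings. With Cadict it was 2.66-fold higher than in Ctrl (log2 fold change 1.41, SE 0.06, adjusted p = 2.5e-12). The direction held with library totals (log2 fold change 0.45, adjusted p = 5.5e-07), but with the deposited TPM the value was 0.09 (limma, adjusted p = 0.11), which did not pass.

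The glutathione carriers, which bring this thiol into the matrix, were higher together with Cadict on the count scale. Slc25a39 had 89.7, 91.8 and 88.0 CPM in Ctrl, 86.6, 81.5 and 84.3 CPM in Cu-Cys and 204, 220 and 194 CPM in Cadict. Slc25a40 had 55.8, 53.5 and 53.4 CPM in Ctrl, 45.3, 47.6 and 45.1 CPM in Cu-Cys and 132, 115 and 132 CPM in Cadict. In both genes the Cu-Cys libraries all lay below the Ctrl libraries and the Cadict libraries all above. With Cadict the rises were 2.29-fold for Slc25a39 (adjusted p = 6.3e-12) and 2.33-fold for Slc25a40 (adjusted p = 1.9e-11) under TMM, and both turned under TPM, with log2 differences of -0.16 for Slc25a39 (limma, adjusted p = 0.02) and -0.85 for Slc25a40 (limma, adjusted p = 5.9e-05). With Cu-Cys, Slc25a40 fell by 0.24 on the log2 scale (adjusted p = 0.0056), while Slc25a39 had a log2 fold change of -0.10 (adjusted p = 0.17). This difference between them depended on the scaling: with the deposited TPM Slc25a40 did not pass (limma, -0.34, adjusted p = 0.075) and Slc25a39 did (limma, -0.23, adjusted p = 0.0078), and Slc25a39 also passed with library totals (-0.16, adjusted p = 0.019).

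The ADP/ATP translocases export the ATP made by oxidative phosphorylation, and their forms parted with Cadict. Slc25a4 had 346, 353 and 366 CPM in Ctrl, 445, 437 and 445 CPM in Cu-Cys and 203, 233 and 182 CPM in Cadict. It rose 1.25-fold with Cu-Cys (adjusted p = 0.0016) and fell 1.72-fold with Cadict (log2 fold change -0.79, SE 0.07, adjusted p = 2.9e-08), under all 4 scalings in both cases. Slc25a5 had 154, 154 and 160 CPM in Ctrl, 258, 269 and 261 CPM in Cu-Cys and 350, 395 and 298 CPM in Cadict. Its rise of 1.68-fold with Cu-Cys (adjusted p = 2.4e-06) passed under all 4 scalings, whereas its 2.23-fold rise with Cadict (log2 fold change 1.15, SE 0.08, adjusted p = 6.7e-10) turned to -0.17 under TPM (limma, adjusted p = 0.0094). Of the 50-base stretches of Slc25a5 transcripts, 46.6% occur in 9 other gene models, many of them processed copies, so its count is uncertain. The ratio of these genes within a library does not depend on the scaling. Slc25a4 stood at 2.19 times the TPM of Slc25a5 in Ctrl, 1.62 times in Cu-Cys and 0.572 times in Cadict, and the log2 ratios of the 3 groups did not overlap (1.11 to 1.14, 0.645 to 0.729 and -0.841 to -0.767).

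Slc25a47, a carrier best known from liver, completed the 8 called higher at low counts. It had 27, 31 and 25 counts in Ctrl, 25, 16 and 22 in Cu-Cys and 26, 41 and 42 in Cadict, which TMM scaling turned into 1.20 ± 0.129, 0.963 ± 0.214 and 3.10 ± 0.774 CPM. Its rise with Cadict was 2.58-fold (log2 fold change 1.36, SE 0.23, adjusted p = 5.1e-05), and it no longer passed the test with library totals (0.41, adjusted p = 0.1) or TPM (0.04, adjusted p = 0.78).

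**Figure D2:**
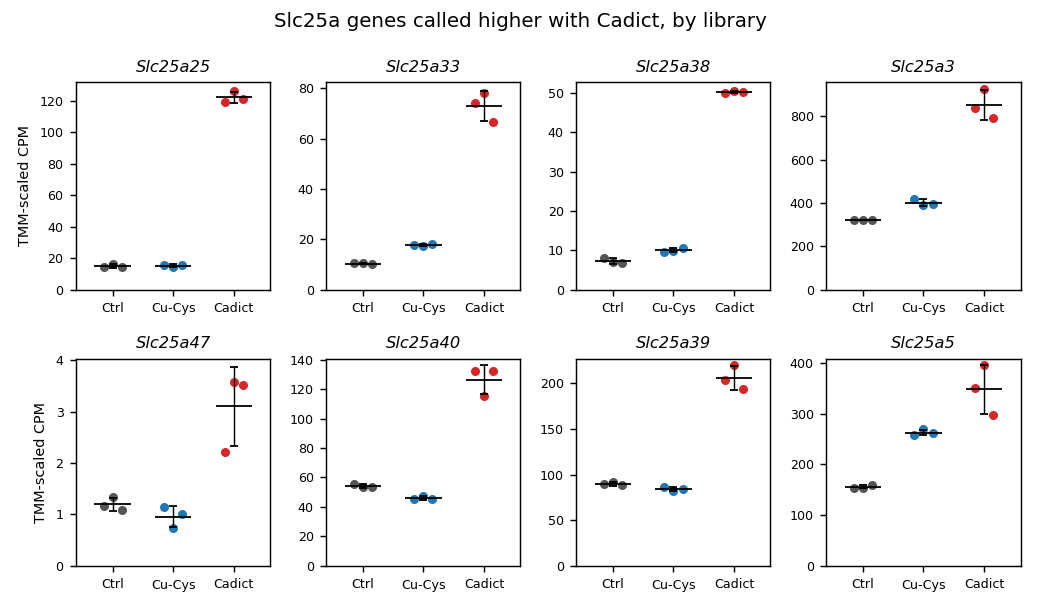
TMM-scaled CPM (vertical axes, each starting at 0) in each library for the 8 Slc25a genes called higher with Cadict; points are libraries, the wide line is the mean and the bars show the SD (n = 3). Slc25a33, Slc25a38, Slc25a3 and Slc25a5 step up from Ctrl to Cu-Cys to Cadict without overlap, whereas Slc25a25 has 14.1 to 16.1 CPM in all Ctrl and Cu-Cys libraries and at least 119 CPM in every Cadict library.

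These 8 genes were all called higher with Cadict under TMM. Promoters were read from RefSeq sequences of build GRCm38.p6, in windows of 300 bases from 250 before to 50 after each annotated start. Windows were found for 34 of the 44 carriers, 30 of them tested. The antioxidant response element core, TGACNNNGC on either strand, was present for 6 of the 8 carriers called higher, 2 of 11 called lower (Slc25a14 and Slc25a23) and 1 of 11 not called (Slc25a53). Over all tested genes with a window it was present for 17.0%, for 19.8% of those called higher with Cadict and for 14.9% of those called lower, and 12.4% of all 32851 windows held it. The motif was searched for after the values were seen, beside the other motifs given below, in genes chosen by those same values. A match of letters is not a binding site, and a common cause was not tested. The stretches around the matches of the 6 genes are shown, although the rises of Slc25a5 and Slc25a40 turned under TPM. Each stretch is written 5′ to 3′ on the strand of its gene, with the matched letters in capitals. That of Slc25a25 is chr2:32451471-32451595 (minus strand, its first match 100 bases before the start), Slc25a33 chr4:149774268-149774324 (minus strand, 32 bases before), Slc25a38 chr9:120110302-120110360 (plus strand, 55 bases before), Slc25a3 chr10:91123982-91124040 (minus strand, 48 bases before), Slc25a40 chr5:8422812-8422870 (plus strand, 1 base before) and Slc25a5 chrX:36795466-36795524 (plus strand, 106 bases before).
Slc25a25: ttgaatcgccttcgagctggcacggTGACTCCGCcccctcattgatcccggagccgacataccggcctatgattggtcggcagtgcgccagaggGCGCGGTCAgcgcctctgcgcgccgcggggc
Slc25a33: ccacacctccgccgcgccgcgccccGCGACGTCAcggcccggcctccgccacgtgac
Slc25a38: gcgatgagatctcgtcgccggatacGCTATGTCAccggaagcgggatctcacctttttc
Slc25a3: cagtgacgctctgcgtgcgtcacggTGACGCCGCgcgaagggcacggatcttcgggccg
Slc25a40: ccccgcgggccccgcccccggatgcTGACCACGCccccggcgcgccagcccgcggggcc
Slc25a5: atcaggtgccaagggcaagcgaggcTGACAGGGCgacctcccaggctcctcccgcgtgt

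Slc25a25 has 2 separate matches, 1 on each strand, and both lie in 1 of its 3 windows. The match of Slc25a33 overlaps letters that resemble a cyclic AMP response element. Of the other motifs searched on both strands, the metal response element core TGCNCNC was present for 4 of the 8 carriers called higher, 7 of 11 called lower and 7 of 11 not called, beside 64.2% of tested genes with a window and 61.7% of those called higher (51.0% of all windows). The cyclic AMP response element TGACGTCA was present for Slc25a25 and, among those not called, Slc25a36, beside 3.58% of tested genes and 5.49% of those called higher (1.79% of all windows). The E-box CACGTG was present for 1 of the 8 called higher, Slc25a33, 3 called lower and 2 not called, beside 11.8% of tested genes, 17.2% of those called higher and 8.84% of those called lower (7.15% of all windows). Neither TGATGNAAN, a C/EBP-ATF composite element (2.55% of tested genes, 3.95% of all windows), nor the heat shock element GAANNTTC (6.8% of tested genes, 7.86% of all windows) was found for any tested carrier with a window.

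The largest fall with Cadict was that of Slc25a42, which brings coenzyme A into mitochondria. It had 6.18, 6.79 and 5.23 CPM in Ctrl, 4.2, 2.70 and 3.37 CPM in Cu-Cys and 0.595, 1.22 and 0.923 CPM in Cadict. The groups formed descending steps without overlap. It fell 1.77-fold with Cu-Cys (adjusted p = 0.00079) and 6.63-fold with Cadict (log2 fold change -2.73, SE 0.25, adjusted p = 5e-08), on 7 to 14 counts per Cadict library. Slc25a16, a carrier also linked to coenzyme A, had 14.2, 13 and 12.6 CPM in Ctrl, 12.9, 12.9 and 12.6 CPM in Cu-Cys and 2.72, 1.83 and 2.35 CPM in Cadict. It fell 5.76-fold with Cadict (log2 fold change -2.53, SE 0.13, adjusted p = 3.7e-11), and its Cu-Cys libraries overlapped Ctrl (log2 fold change -0.05, adjusted p = 0.63).

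Of 9 tested carriers of cofactors and nucleotides, which include Slc25a33, Slc25a36 and these coenzyme A carriers, 3 passed the test as higher with Cadict against Ctrl and 5 as lower, beside 40.6% and 47.1% of all genes. Slc25a51, the NAD carrier, fell from 88.2 ± 0.845 to 28.5 ± 2.51 CPM (log2 fold change -1.63, adjusted p = 1.2e-12), and already fell to 76.8 ± 1.65 CPM with Cu-Cys (adjusted p = 0.0086). The folate carrier Slc25a32 rose from 28.6 to 39.2 CPM with Cu-Cys (adjusted p = 0.00034) and had 25.7 CPM in Cadict (adjusted p = 0.12 against Ctrl). With TPM the Cu-Cys rise did not pass (limma, 0.30, adjusted p = 0.081), and Cadict against Ctrl was a fall with library totals (-1.10, adjusted p = 8.7e-09) and TPM (limma, -1.26, adjusted p = 4.5e-07). Slc25a26, which imports S-adenosylmethionine, rose from 4.28 to 6.91 CPM with Cadict (adjusted p = 0.0004), a direction that turned with library totals and TPM.

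Slc25a45 and Slc25a35, whose substrates are less established, also fell. Slc25a45 had 7.39, 8.96 and 7.19 CPM in Ctrl, 5.90, 5.35 and 5.11 CPM in Cu-Cys and 2.38, 1.22 and 1.59 CPM in Cadict, a fall of 4.51-fold with Cadict (log2 fold change -2.17, SE 0.19, adjusted p = 2.5e-08). Its Cu-Cys libraries all lay below Ctrl (log2 fold change -0.53, adjusted p = 0.0041). Slc25a35 had 3.07, 2.94 and 3.49 CPM in Ctrl, 2.77, 2.29 and 2.74 CPM in Cu-Cys and 0.764, 1.22 and 0.420 CPM in Cadict, a fall of 3.95-fold (log2 fold change -1.98, SE 0.27, adjusted p = 3.7e-06) on 5 to 14 counts. It overlaps Rangrf on the opposite strand, with which it shares part of the 25.3% of its 50-base stretches found in other genes, and no source used here says that strand was used in counting.

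Slc25a46 acts in mitochondrial fusion and fission rather than transport. It had 63.9, 67.9 and 64.0 CPM in Ctrl, 64.5, 69.5 and 62.5 CPM in Cu-Cys and 14.9, 16.6 and 19.4 CPM in Cadict. Ctrl and Cu-Cys overlapped, and Cadict lay 3.84-fold lower than Ctrl (log2 fold change -1.94, SE 0.08, adjusted p = 3.2e-12). An antisense gene, B930094E09Rik, overlaps it. Among relatives of the uncoupling proteins, Slc25a27 had 5.88, 6.53 and 6.45 CPM in Ctrl, 6.83, 4.80 and 5.43 CPM in Cu-Cys and 1.19, 2.18 and 1.59 CPM in Cadict, a fall of 3.80-fold with Cadict (log2 fold change -1.93, SE 0.21, adjusted p = 2.9e-07). Slc25a14 fell beside it (log2 fold change -1.50, adjusted p = 2.8e-05), whereas the more abundant Slc25a30 had 27.4 CPM in Ctrl and 25.6 CPM in Cadict and did not pass under TMM (log2 fold change -0.10, adjusted p = 0.52). Slc25a30 fell with library totals (-1.05, adjusted p = 3.8e-06) and TPM (limma, -1.37, adjusted p = 1.3e-05).

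**Figure D3:**
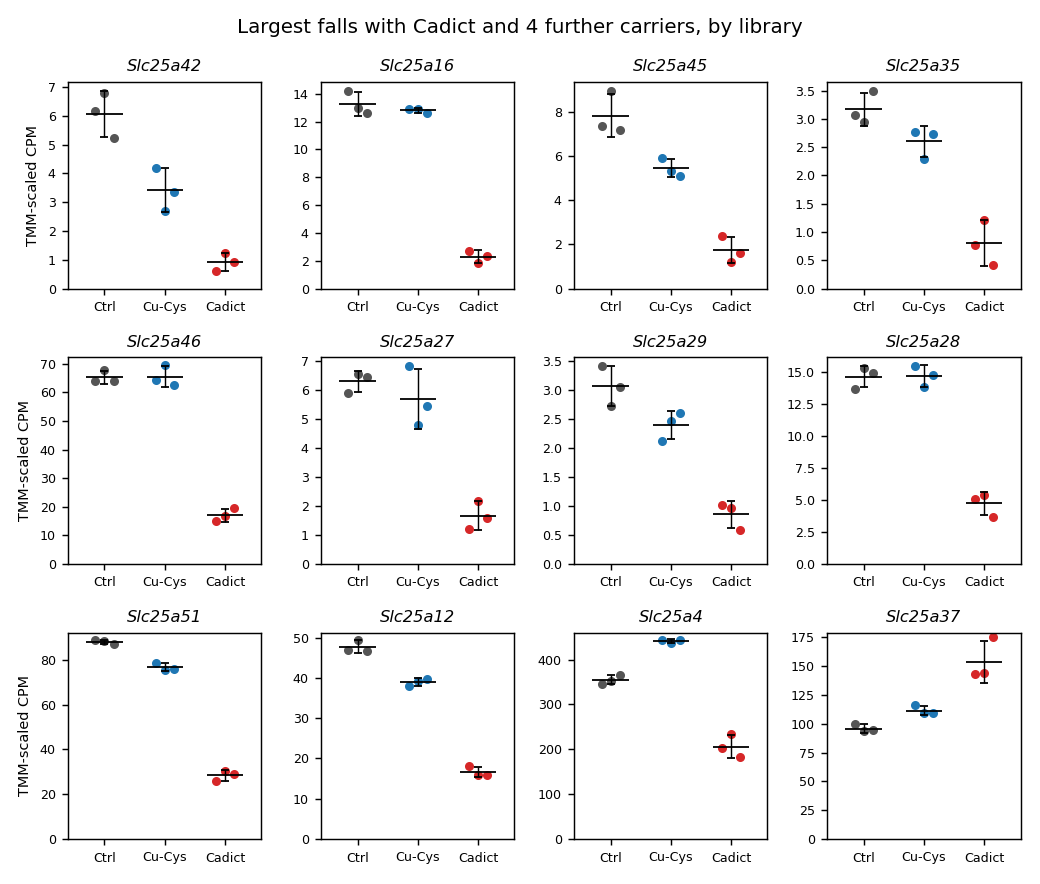
TMM-scaled CPM (vertical axes, each starting at 0) in each library for the 8 named falls with Cadict (from Slc25a42 to Slc25a28) and for Slc25a51, Slc25a12, Slc25a4 and Slc25a37; points are libraries, the wide line is the mean and the bars show the SD (n = 3). In the first 11 panels every Cadict library lies below every Ctrl library, and in the Slc25a37 panel every Cadict library lies above.

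The iron importers of the matrix, the mitoferrins, moved apart. Slc25a28 had 13.7, 15.3 and 14.9 CPM in Ctrl, 15.5, 13.8 and 14.8 CPM in Cu-Cys and 5.10, 5.40 and 3.69 CPM in Cadict, a fall of 3.10-fold with Cadict (log2 fold change -1.63, SE 0.12, adjusted p = 3.5e-09). Slc25a37 had 100, 93.4 and 94.2 CPM in Ctrl, 116, 109 and 109 CPM in Cu-Cys and 143, 144 and 175 CPM in Cadict, a rise of 1.60-fold (log2 fold change 0.68, SE 0.07, adjusted p = 1.8e-07) that turned to -0.27 with library totals and -0.59 with TPM. Its Cu-Cys libraries all lay above Ctrl under TMM (log2 fold change 0.215, adjusted p = 0.021), but this rise did not pass with library totals (0.15, adjusted p = 0.13) or TPM (limma, 0.08, adjusted p = 0.61). Within a library, Slc25a28 stood at 0.568 times the TPM of Slc25a37 in Ctrl, 0.494 times in Cu-Cys and 0.112 times in Cadict. The log2 ratio of Cadict (-3.72 to -2.85) did not overlap that of Ctrl (-0.966 to -0.695).

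Among amino acid carriers, 7 genes were tested, of which 2 passed as higher with Cadict against Ctrl and 5 as lower, beside 40.6% and 47.1% of all genes. Slc25a29, which carries arginine and lysine, had 3.42, 2.73 and 3.05 CPM in Ctrl, 2.12, 2.47 and 2.6 CPM in Cu-Cys and 1.02, 0.958 and 0.588 CPM in Cadict. With Cadict it fell 3.57-fold (log2 fold change -1.84, SE 0.24, adjusted p = 2.6e-06), on 12, 11 and 7 counts in the Cadict libraries. The ornithine carrier Slc25a15 fell by 1.61 and the glutamate carrier Slc25a22 by 0.95 on the log2 scale (adjusted p = 1.6e-10 and 7.1e-07). Slc25a12 and Slc25a13, the aspartate/glutamate carriers of the malate-aspartate shuttle, both fell with Cadict, from 47.7 ± 1.59 to 16.6 ± 1.29 CPM for Slc25a12 (log2 fold change -1.52) and from 71.9 ± 2.58 to 33.7 ± 2.16 CPM for Slc25a13 (log2 fold change -1.09). With Cu-Cys they moved in opposite directions: Slc25a12 fell to 39 ± 0.935 CPM (adjusted p = 0.00092) and Slc25a13 rose to 94.2 ± 1.27 CPM (adjusted p = 4.2e-05). With TPM the fall of Slc25a12 passed, and the rise of Slc25a13 did not (limma, 0.24, adjusted p = 0.052). Slc25a44, a carrier of branched-chain amino acids, rose with Cadict (log2 fold change 0.58, adjusted p = 8.7e-06), which turned with library totals and TPM.

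The carboxylate carriers link the citric acid cycle to the cytosol, and all 3 tested fell with Cadict under TMM: the citrate carrier Slc25a1 by 0.76, the oxoglutarate carrier Slc25a11 by 1.08 and the dicarboxylate carrier Slc25a10 by 0.30 on the log2 scale (adjusted p = 3.4e-08, 2.7e-10 and 0.0049). None of the 3 passed with Cu-Cys under TMM, whereas Slc25a1 and Slc25a11 passed as lower with library totals (adjusted p = 0.031 and 0.007) and TPM (limma, adjusted p = 0.014 and 0.0077). Slc25a20, the carnitine/acylcarnitine carrier of fatty acid import, had group means between 18.1 and 19.1 CPM under TMM (log2 fold change 0.04, adjusted p = 0.68 for Cadict against Ctrl). That direction turned to a fall with library totals (-0.91, adjusted p = 4.5e-08) and TPM (limma, -1.20, adjusted p = 2.6e-08). Slc25a17 had a small fall with Cadict under TMM (log2 fold change -0.15, adjusted p = 0.048). Its fall was -0.0265 with DESeq2 size factors, -1.1 with library totals (edgeR, adjusted p = 5.3e-11) and -1.42 with TPM (limma, adjusted p = 7.1e-11). Slc25a43 fell from 1.71 to 0.790 CPM (adjusted p = 0.0082), on 9, 3 and 16 counts in the Cadict libraries. Slc25a53 had under 1 CPM in every group and did not pass under TMM (adjusted p = 0.89).

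Copper and cystine alone changed fewer carriers and changed them less. With Cu-Cys against Ctrl, 0 carriers were called higher and 0 lower (edgeR quasi-likelihood test; 0.167% and 1.47% of all genes), and the DESeq2 Wald test also called 0. Without the library of Cu-Cys replicate 1, Slc25a42 was called lower (log2 fold change -1, adjusted p = 0.00068). The test was passed by 10 as higher and 6 as lower, against 22.6% and 22.4% of all genes, and at an unadjusted p under 0.05 the counts were 11 and 9. The median log2 fold change was 0.08 over the 39 carriers and 0.01 over all genes. This balance depended on the scaling: library totals gave 7 higher and 11 lower (median 0.01; all genes -0.06), and TPM gave 5 higher and 11 lower (median -0.10; all genes -0.12). Slc25a33, Slc25a5, Slc25a38, Slc25a3 and Slc25a4 were higher under all 4 scalings, and Slc25a42, Slc25a45, Slc25a23, Slc25a12 and Slc25a51 were lower under all 4. Shares of all genes were not counted at the unadjusted p, for passing with library totals or TPM, or for passing under all 4. Those counts of carriers therefore have nothing to stand beside. The largest fall, that of Slc25a23 (log2 fold change -1.01, SE 0.23, adjusted p = 0.0024), rests on 16 or 17 counts per Cu-Cys library.

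Set directly against Cu-Cys, Cadict had 7 carriers called higher and 16 lower (18.6% and 23.6% of all genes), and 11 passed as higher and 22 as lower (40.3% and 45.6% of all genes). This comparison shares its Cadict libraries with the first, so the lists are not independent. Slc25a25 (log2 fold change 3.01), Slc25a38 (2.32), Slc25a33 (2.04) and Slc25a47 (1.68) passed as higher under all 4 scalings, and 22 carriers passed as lower under all 4. The share of all genes that did so was not counted. With library totals 5.76% of all genes were called higher and 47.7% lower in this comparison, and with TPM 3% and 48.4%. For Slc25a47 the pass was narrow with log2(TPM + 1) (limma, adjusted p = 0.037) and was lost with log2(TPM + 0.1) (limma, adjusted p = 0.052). This gene had 25, 16 and 22 counts in the Cu-Cys libraries. Slc25a5 exceeded its Cu-Cys level by only 0.40 on the log2 scale (adjusted p = 0.00012), which turned to -0.49 with library totals. Slc25a4, higher in Cu-Cys than in Ctrl, lay 2.15-fold lower in Cadict than in Cu-Cys (log2 fold change -1.10, adjusted p = 5.3e-10).

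Related genes that do the same work changed their balance, in ratios that hold whatever the scaling between libraries. Slc25a24 stood at 15.6 times the TPM of Slc25a25 in Ctrl and 15 times in Cu-Cys, and at 0.992 times in Cadict, where the ATP-Mg carriers were about level. The log2 ratio was 3.84 to 4.04 over Ctrl libraries and -0.154 to 0.072 over Cadict libraries. Slc25a33 went from 0.872 times the TPM of Slc25a36 in Ctrl to 1.44 times in Cu-Cys and 5.12 times in Cadict, with log2 ratios that did not overlap. Slc25a12 stood at 0.650 times Slc25a13 in Ctrl, 0.405 times in Cu-Cys and 0.465 times in Cadict. Here both treatments lay below Ctrl, and the Cadict log2 ratios (-1.27 to -0.882) lay above those of Cu-Cys (-1.32 to -1.28). Slc25a16 over Slc25a42 ran from 0.599 to 2.20 in the log2 ratio of Cadict libraries, which spans the range of Ctrl (0.954 to 1.29).

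**Figure D4:**
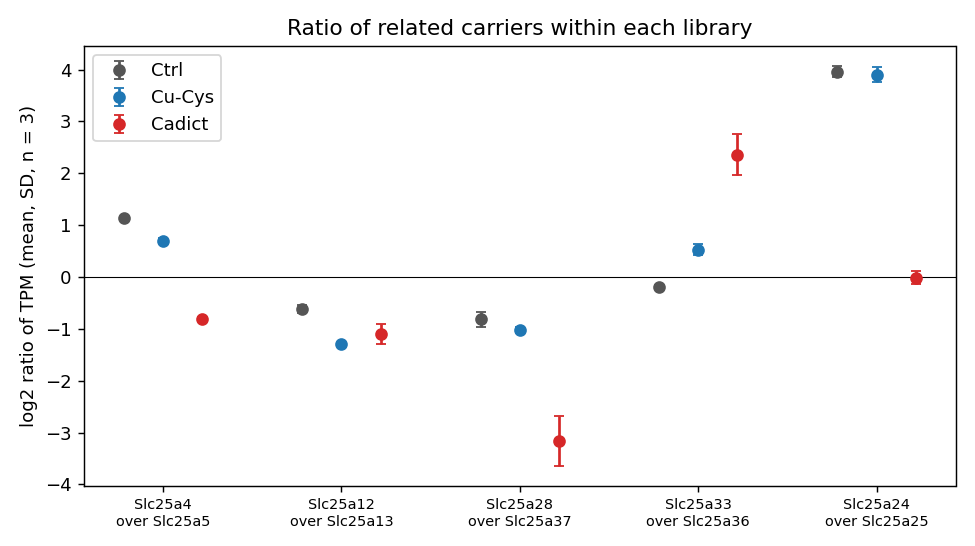
Log2 ratio of deposited TPM between related carriers within each library (vertical axis; points are group means, bars the SD, n = 3). With Cadict the ratio of Slc25a4 to Slc25a5 passes from above 0 (1.13 in Ctrl) to below 0 (-0.81), and that of Slc25a24 to Slc25a25 drops from 3.96 to -0.01.

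Directions under the 4 scalings were compared for all 39 carriers. In Cadict against Ctrl, 13 lay above 0 with TMM, 15 with DESeq2 size factors, 8 with library totals and 5 with TPM. The median over all tested genes was -0.125, -0.00626, -1.08 and -1.13 in the same order, so genes at large also moved down. How many of all genes kept their direction or passed under all 4 was not counted, here or beside the other such counts. The 5 above 0 under all 4 were Slc25a3, Slc25a25, Slc25a33, Slc25a38 and Slc25a47. Below 0 under all 4 were 24, of which 21 passed the test each time, including all 16 called lower. The direction of the other 10 turned: Slc25a5, Slc25a20, Slc25a26, Slc25a30, Slc25a36, Slc25a37, Slc25a39, Slc25a40, Slc25a44 and Slc25a53. The same dependence shows in sums over the family, which were 2049 ± 3.72, 2344 ± 16.2 and 2673 ± 121 CPM with TMM scaling in Ctrl, Cu-Cys and Cadict, but 2763 ± 28, 3025 ± 32.1 and 1593 ± 42.5 TPM.

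**Figure D5:**
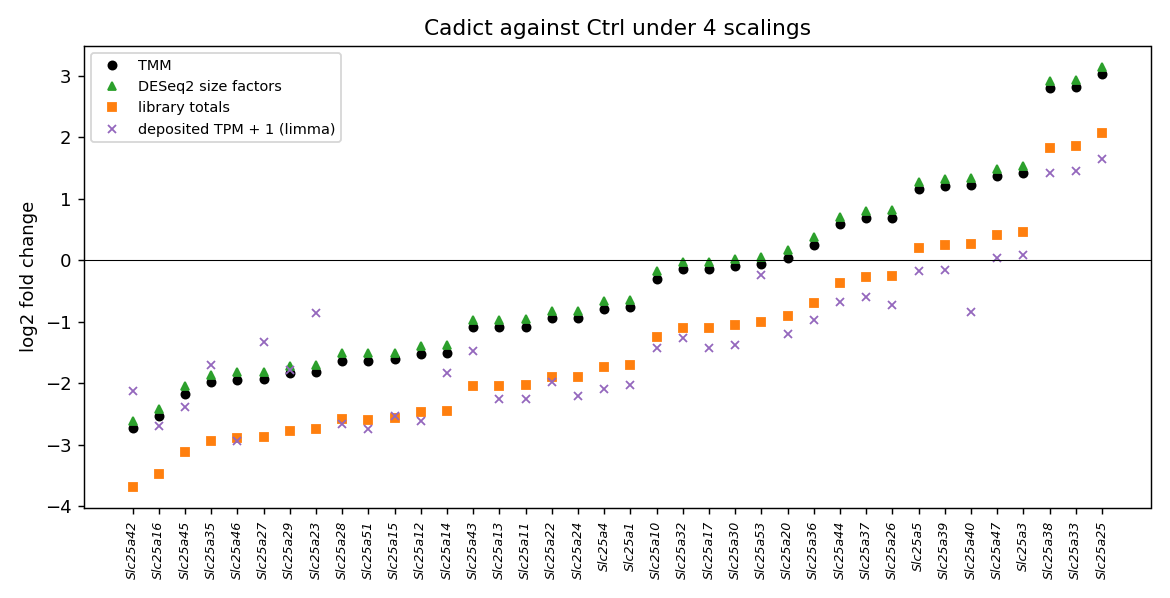
Log2 fold change of Cadict against Ctrl (vertical axis) for 38 of the 39 tested Slc25a genes, ordered by the TMM value, under 4 scalings: TMM and DESeq2 size factors (edgeR), library totals (edgeR) and log2(TPM + 1) (limma). Slc25a25, Slc25a33 and Slc25a38 stay above 1 under each, Slc25a3 and Slc25a47 stay above 0, and the points of Slc25a5, Slc25a39 and Slc25a40 lie on both sides of 0.

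Genes that work with the carriers were counted from lists of the same biology. The carrier import route had 9 genes tested, of which 7 passed as higher and 0 as lower with Cadict against Ctrl (3 called at 2-fold), beside 40.6% and 47.1% of all genes. Their median log2 fold change was 0.84 with TMM, -0.11 with library totals and -0.48 with TPM, so that 3 of the 9 passed as higher under all 4 scalings. These 3 were among the small chaperones that escort carriers across the intermembrane space. Timm10 rose from 6.88 ± 0.357 to 27.5 ± 4.76 CPM (log2 fold change 2), Timm8a1 by 1.91 and Timm9 by 1.77 on the log2 scale. Timm13 (0.846 with TMM) and Timm10b (0.365), chaperones of the same kind, turned with library totals (-0.109 and -0.588) and TPM (limma, -0.483 and -0.793). The channel of the route, Timm22, went from 21.7 ± 0.817 to 18.9 ± 4.64 CPM and did not pass with TMM (adjusted p = 0.13). With Cu-Cys, 7 of the 9 import genes passed as higher (median 0.40; 22.6% of all genes), and 4 did so under all 4 scalings.

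All 3 outer-membrane channels passed as higher with Cadict under TMM, Vdac2 by a log2 fold change of 2.01 and Vdac3 by 1.56, both under all 4 scalings, and Vdac1 by 0.69, which turned to -0.27 with library totals. Of 16 inner-membrane carriers outside the family, 7 passed as higher and 7 as lower with Cadict under TMM (median -0.08), shares near the 40.6% and 47.1% of all genes, and 0 as higher and 7 as lower under all 4 scalings. Sfxn3, a relative of the mitochondrial serine carrier, fell by 1.64 and Micu2, a regulator of the calcium uniporter, by 1.26 on the log2 scale. The pyruvate carrier subunit Mpc2 (1.28) and the uniporter Mcu (1.09) were called higher with TMM, and both turned with TPM (-0.06 for Mpc2 and -0.21 for Mcu). Family members under other symbols were Mtch2, an outer-membrane insertase, which rose from 108 ± 1.43 to 268 ± 33.9 CPM (log2 fold change 1.31, adjusted p = 5.8e-11; 0.06 with TPM, adjusted p = 0.27), Mtch1 (0.22, adjusted p = 0.011, which turned with library totals and TPM) and Ucp2 (-0.29, adjusted p = 0.22).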

How the data were processed

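RNA-seq was compared between 3 groups of 3 MC38 libraries. The authors deposited for each library and gene an expected count (RSEM 1.3.1 per the submitters' processing notes, which also list HISAT2 2.1.0, Bowtie2 2.3.4.3 and the builds GRCm39 and GRCh38.p13), together with FPKM, TPM and signal values, the last being counts that the authors divided by 1 size factor per library, which were not used. Columns labelled CC were taken as Cu-Cys by its initials, and those labelled CCGE as Cadict from its components. The labels name a column kit and DNA nanoball sequencing, the study's text TRIzol and a Novaseq instrument. The authors' group averages were not used.

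Expected counts were rounded and tested in R 4.3.3 with edgeR 4.0.16 (filterByExpr, TMM, 1 quasi-likelihood fit of all 9 libraries), with Benjamini-Hochberg adjustment over 11949 genes. On simulated counts the fit found 50 of 50 genes raised 4-fold (log2 fold change 2). It found 44 of 50 raised and 40 of 50 lowered by 0.5 on the log2 scale. It also found 7 of 11682 unchanged genes, counting every adjusted p up to 0.05 whatever the fold. The simulation changed 200 of 11882 genes and otherwise kept the composition of Ctrl. It therefore does not test the fit under the composition shift of the Cadict libraries. Values in every library were given for carriers called with Cu-Cys, for the 8 largest called rises and falls with Cadict among genes with a mean of at least 1 CPM, and for Slc25a3, Slc25a4, Slc25a5, Slc25a28, Slc25a37, Slc25a39 and Slc25a40. Slc25a51 and Slc25a12 were added after their values were seen. The members, lists and rules were chosen with earlier results of these data known. Alternatives were DESeq2 1.42.0 size factors and its Wald test, library totals, 2 filters, a replicate block, limma 3.58.1 on FPKM and TPM, and leaving out each library. Limma used log2(value + 1) or log2(TPM + 0.1), which understates changes of low genes. Shared 50-base stretches and overlaps came from GENCODE M21 transcripts, where all 44 carriers matched, and promoters from RefSeq GRCm38.p6; neither is the build of the counts. Slc25a41, Slc25a48, Slc25a52 and Slc25a54 were not analysed here. 1 further carrier is counted but not reported here by itself.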

Additional observations from a re-analysis of the deposited data

How the results depend on the processing

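The limits are those of scaling and of depth. The Cadict libraries differ in composition from the others, and the counts cannot say which scaling is right. With DESeq2 size factors, no filter on low counts, or a replicate block, all 54 fold changes of named carriers kept their direction and their side of an adjusted p of 0.05. With no filter, Slc25a3 in Cadict against Cu-Cys came just under 2-fold, which left 6 carriers called higher there in place of 7. In Cadict against Ctrl, 14 carriers were called lower with DESeq2 size factors and 18 with no filter, in place of 16. The replicate numbers are not stated to pair libraries, and deviations of libraries with the same number correlated between -0.115 and 0.13 over 10405 genes; with the replicate block, 8 carriers were called higher and 16 lower in Cadict against Ctrl, as without it, and the numbers called in the other comparisons were also the same. Carriers with under 10 counts per Cadict library, such as Slc25a23, are the least precise, and a filter that asks every library for at least 10 counts leaves them out.

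With library totals, the carriers called higher and lower in Cadict against Ctrl were 3 and 25, those that passed as higher 7, and the median log2 fold change -1.74; in Cu-Cys against Ctrl 11 passed as lower, with a median of 0.00921; in Cadict against Cu-Cys 3 were called higher, 7 passed as higher, and the median was -1.67. Over all genes, 6.93% were called higher and 51.5% lower in Cadict against Ctrl with library totals (median -1.08), 3.26% and 54.2% with log2(TPM + 1) (median -1.13), 4.2% and 60.3% with log2(TPM + 0.1) (median -1.39) and 5.13% and 41.5% with log2(FPKM + 1) (median -0.778). In Cadict against Cu-Cys these were 5.76% and 47.7% with library totals (median -0.98) and 3% and 48.4% with log2(TPM + 1) (median -0.957). With log2(TPM + 0.1) they were 3.9% and 55.5% (median -1.2), and with log2(FPKM + 1) 3.95% and 37.7% (median -0.681). Shares of all genes that passed were not counted on these scales. With log2(TPM + 1) in limma, the corresponding values were 3 called higher, 25 called lower, 3 passed as higher and a median of -1.42 in Cadict against Ctrl; 5 passed as higher, 11 passed as lower and a median of -0.095 in Cu-Cys against Ctrl; and 2 called higher, 25 called lower, 4 passed as higher and a median of -1.37 in Cadict against Cu-Cys. With log2(TPM + 0.1) they were 3, 27, 3 and -2.11 in Cadict against Ctrl; 5 passed as higher and a median of -0.107 in Cu-Cys against Ctrl; and 2 called higher, 27 called lower, 3 passed as higher and a median of -1.82 in Cadict against Cu-Cys. With log2(FPKM + 1) they were 3 called higher, 6 passed as higher and a median of -1.07 in Cadict against Ctrl; 11 passed as lower and a median of -0.0296 in Cu-Cys against Ctrl; and 3 called higher, 6 passed as higher and a median of -1.05 in Cadict against Cu-Cys. With DESeq2 size factors the median in Cu-Cys against Ctrl was 0.104. That filter gave medians of -0.364 in Cadict against Ctrl and 0.0595 in Cu-Cys against Ctrl, with fewer carriers tested.

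Single carriers turned as follows, in log2 fold change. In Cadict against Ctrl, Slc25a37 was -0.27 with library totals, -0.25 with FPKM, -0.603 with log2(TPM + 0.1) and -0.59 with log2(TPM + 1); Slc25a40 was -0.508 with FPKM and -0.904 and -0.845 with the TPM settings; Slc25a39 was -0.157 and -0.156 with the TPM settings, and Slc25a5 -0.172 and -0.171. In Cadict against Cu-Cys, Slc25a5 was -0.485 with library totals, -0.502 with FPKM and -0.777 and -0.775 with TPM; Slc25a37 was -0.416, -0.399, -0.684 and -0.67 in the same order; Slc25a40 was -0.25 with FPKM and -0.549 and -0.509 with TPM; and Slc25a3 was -0.0844 and -0.0843 with TPM. In Cu-Cys against Ctrl, 10 of the 39 tested carriers changed sign between the 4 scalings, 3 of them among those given by library. Slc25a25 was -0.0115 with the stricter filter, -0.0564 with library totals, -0.035 with FPKM and -0.111 and -0.103 with TPM. Slc25a46 was -0.00219 in the DESeq2 Wald test, -0.0188 with the filter, -0.0637 with library totals, -0.0573 with FPKM and -0.132 and -0.129 with TPM. Slc25a28 was -0.00262, -0.0192, -0.0641, -0.0433, -0.118 and -0.114 in the same order.

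Leaving out each library in turn gave 8 carriers called higher and 16 to 17 lower in Cadict against Ctrl, 7 higher and 16 to 17 lower in Cadict against Cu-Cys, and 0 higher and 0 to 1 lower in Cu-Cys against Ctrl; the 1 appeared without Cu-Cys replicate 1. The median in Cu-Cys against Ctrl ran from -0.0022, without Ctrl replicate 1, to 0.0791. The rise of Slc25a37 with Cu-Cys no longer passed without Ctrl replicate 2, Ctrl replicate 3 or Cu-Cys replicate 1 (adjusted p = 0.081, 0.076 and 0.096), nor with library totals, TPM or FPKM (adjusted p = 0.13, 0.61 and 0.16). In the same comparison Slc25a25 ran from -0.0225 to 0.0665, Slc25a46 from -0.0384 to 0.039 and Slc25a28 from -0.0418 to 0.0509. The cause of these differences was not tested.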

Other observations

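Slc25a40 is the carrier on which counts and TPM of the same libraries differ most. The ratio of a gene's expected count to its TPM is set by the effective transcript length that was assigned to it. Taken on a log2 scale relative to the median gene and to the mean of Ctrl, this ratio for Slc25a40 was between -0.0838 and 0.0454 in the Ctrl libraries and between -0.129 and 0.0339 in the Cu-Cys libraries. In the Cadict libraries it was 0.899, 0.984 and 0.723, a mean shift of 0.87 or 1.83-fold. Among 9211 genes with at least 1 TPM, 0.402% shifted by more than 0.5, and Slc25a40 was the only 1 of 29 carriers that did. Slc25a26 was next among the carriers at 0.33, but its Ctrl libraries already ran from -0.422 to 0.275.

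Transcript length was that of the longest protein-coding transcript of each gene in GENCODE M21, which need not be the expressed one. Carriers called higher with Cadict had shorter transcripts (median 1839 bases, range 1240 to 3529) than those called lower (median 3133, range 1535 to 6351). Across the 39 tested carriers, Spearman's rho of the Cadict log2 fold change with transcript length was -0.259, and across 11534 tested genes it was -0.175. For Cu-Cys against Ctrl the values were -0.161 over the carriers and -0.175 over the tested genes, so the relation was not particular to Cadict. Genes are not independent replicates, and the points share libraries.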
